A study of Mus musculus with 12 samples.

Results

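The sg3 line was compared with the sg2 line in 6DT1 cells, a mouse mammary cancer cell line derived from an MMTV-Myc tumor. Both lines are labelled as CRISPR knockouts of Resf1, made with different guides, and the comparison asks which genes and functions separate these clonal lines. The members were the 3 sg3 libraries and the 3 sg2 libraries, 6 of the 12 libraries of the series, and all 982 genes of the deposited table were compared. The other 6 libraries were 3 of sg1, a knockout line made with a further guide, and 3 of sgControl, labelled wild type and given a scrambled guide. Per the labels, cells were maintained in DMEM with serum and puromycin, but the labels also describe a knockdown in place of the knockout, so this medium may not be that of these lines. RNA was collected from dishes seeded in triplicate.

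Per the study's methods, guides were delivered in a lentiviral vector with a GFP marker, and after sorting for GFP, single cells were plated and grown into lines. Each line is thus 1 clone, the 3 libraries of a line are dishes of that clone, and the p-values measure the spread between dishes, which may be technical. Guide and clone cannot be told apart, and sgControl is likewise 1 line. Resf1 itself was not analysed here, so the labels were not checked on the targeted gene in these data. The study's methods report that each clone was checked by genomic PCR and Sanger sequencing, and the knockout by western blot.

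Resf1 encodes retroelement silencing factor 1, a nuclear protein known to act with the histone methyltransferase SETDB1 in the silencing of endogenous retroviruses. A culture of cancer cells is a mixture of cells whose expression states differ, and a line grown from a single cell carries the state of its founder. Genes that separate such lines are often those of cell identity, adhesion and signalling, whereas genes of general growth are used by every dividing cell.

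The values were normalized read counts, that is, gene counts that the authors had divided by a size factor for each library. Table sums ranged from 2409352 to 2640989 in sg2 and from 2232030 to 2395491 in sg3, which is the part of the library in these genes and not its depth. A single feature without a symbol, ENSMUSG00000119584, held 25.0% to 32.9% of these sums. Its values were 868708, 626223 and 699398 in sg2 and 558559, 606506 and 689600.0 in sg3, which overlapped. The median SD between libraries of a line on the log2 scale was 0.09 in sg2 and 0.11 in sg3. When the 3 knockout lines together were compared with sgControl, limma's p-value before adjustment was below 0.05 for each of the 982 genes, so the table appears to have been limited to genes that differed there, and the shares below are shares of this table.

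Of the 982 genes, 300 (30.5%) differed between sg3 and sg2 by limma, with 0.05 as the limit of the adjusted p-value. Expression was higher in sg3 for 132 genes (13.4%) and lower for 168 (17.1%). Differences were taken on the log2 scale after adding 1 to each value, which understates the change of low genes. The share of called genes that were higher in sg3 was 44.0% with the deposited scaling, 50.3% with median-of-ratios scaling, 51.0% with upper quartile scaling and 57.6% when libraries were scaled to their table totals. The last of these moved the median of all genes by 0.10 on the log2 scale, and small differences are therefore read relative to that shift. Table totals include ENSMUSG00000119584, which held 25.0% to 32.9% of them, so that scaling follows this feature in part. The 3 libraries of sg3 did not overlap those of sg2 for 380 genes (38.7%), of which 294 were called.

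Differences between the lines ranged from slight to more than 100-fold. Of the called genes, 122 differed by less than 1.5-fold, 52 by 1.5 to 2-fold, 75 by 2 to 4-fold, 26 by 4 to 8-fold and 25 by more than 8-fold. The median absolute log2 difference was 0.78 among the called genes and 0.12 among all 982. Of the 122 calls under 1.5-fold, 8 held under each of 17 alternative settings that tested them, and 39 did when the test against a 1.2-fold change, which removes small differences by construction, was left aside. The corresponding counts were 40 and 45 of the 52 calls of 1.5 to 2-fold, and 120 of the 126 over 2-fold with or without that test. All 51 calls over 4-fold held. Genes with low counts carried most of the large differences. Among the 246 genes with the lowest mean counts over the 6 libraries, 51.2% were called and 86 differed by more than 2-fold, whereas among the 246 with the highest 15.4% were called and 2 did. The order is by read count, not count per length.

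**Figure D1:**
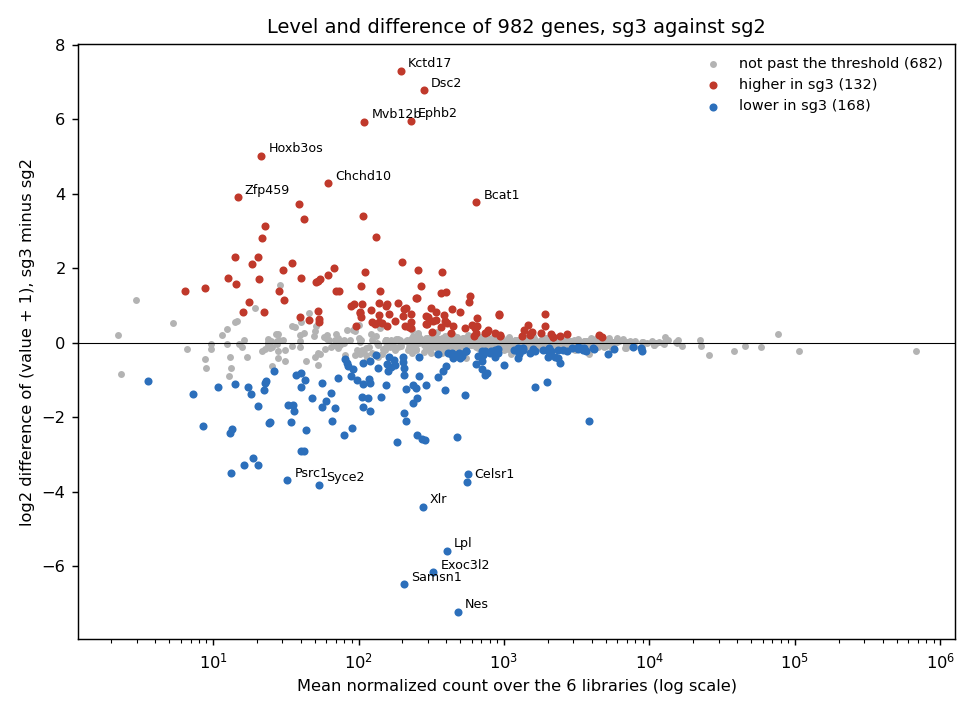
Mean normalized count over the 6 libraries (x axis, log scale) against the log2 difference, sg3 minus sg2 (y axis), for each of the 982 genes. Red points are the 132 genes called higher in sg3, blue points the 168 called lower and grey points the 682 not past the threshold. The largest differences lie at low and middle counts, and the 8 largest in each direction are named.

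Among the genes lower in sg3 the largest difference was that of Nes, the gene of the intermediate filament protein nestin. Nes was at 935, 981 and 959 normalized counts in the sg2 libraries and at 5.82, 5.78 and 4.56 in the sg3 libraries. The groups were far apart, 178-fold higher in sg2, with a log2 difference of -7.24 ± 0.11 (SE) (limma adjusted p = 4e-19). The sgControl libraries lay between the lines at 151, 161 and 142.

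Samsn1, an adaptor protein gene best known from hematopoietic cells, had the same pattern. Its values were 401, 341 and 476 in sg2 and 2.33, 3.85 and 4.56 in sg3, a log2 difference of -6.49 ± 0.25 (SE) (limma adjusted p = 3.2e-13). Exoc3l2, a gene related to the exocyst tethering complex, was at 597, 692 and 644 in sg2 and 6.98, 8.66 and 8.21 in sg3 (log2 difference -6.17 ± 0.24 (SE), limma adjusted p = 3e-13). For both genes all sg2 libraries were above all sgControl libraries and all sg3 libraries were below them. The sg1 libraries also had low Exoc3l2, at 3.19, 6.79 and 4.42.

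In the opposite direction, Kctd17, a substrate adaptor of a cullin ubiquitin ligase, was at 1.04, 2.99 and 0.871 in sg2 and 347, 430.3 and 391 in sg3. Each sg2 library held at most 3 estimated reads of it, so the fold is a bound: Kctd17 was at least 134-fold higher in sg3, counted against 3 reads per library. Its log2 difference in the fit was 7.29 ± 0.20 (SE) (limma adjusted p = 1e-14), a value that depends on the added constant. In sgControl and sg1 Kctd17 was higher than in either line, between 785 and 938.

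Dsc2 encodes desmocollin 2, an adhesive cadherin of desmosomes. It was at 2.09, 6.97 and 4.36 in sg2 and 529.6, 533 and 604 in sg3, 124-fold higher in sg3 (log2 difference 6.77 ± 0.29 (SE), limma adjusted p = 1.4e-12). The groups did not overlap, and sgControl lay between them at 199, 197 and 212. The sg1 libraries were low as well, at 2.13, 0.970 and 1.10.

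Ephb2, a receptor tyrosine kinase for ephrin-B ligands, was at 6.27, 4.98 and 7.84 in sg2 and 406, 486 and 464 in sg3 (log2 difference 5.96 ± 0.14 (SE), limma adjusted p = 2.6e-16). Mvb12b, a subunit of the ESCRT-I complex that sorts membrane cargo, was at 3.13, 2.99 and 1.74 in sg2, within the 3-read limit, and at 236, 212 and 199.8 in sg3, at least 74.2-fold higher. In both genes sg3 was above every sgControl library and sg2 was below.

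The promoters of 4 of these genes are shown because they are among the sequences whose transcripts separated the lines most. The windows are from RefSeq on build GRCm38.p6 and run from 250 bases before to 50 bases after the annotated start, on the strand of the gene, with each CG dinucleotide, the main site of DNA methylation, in capitals. Those of Nes (chr3:87970843-87971142, plus strand) and Samsn1 (chr16:75909217-75909516, minus strand) belong to genes lower in sg3, and those of Ephb2 (chr4:136835963-136836262, minus strand) and Mvb12b (chr2:33887897-33888196, minus strand) to genes higher in sg3.
Nes: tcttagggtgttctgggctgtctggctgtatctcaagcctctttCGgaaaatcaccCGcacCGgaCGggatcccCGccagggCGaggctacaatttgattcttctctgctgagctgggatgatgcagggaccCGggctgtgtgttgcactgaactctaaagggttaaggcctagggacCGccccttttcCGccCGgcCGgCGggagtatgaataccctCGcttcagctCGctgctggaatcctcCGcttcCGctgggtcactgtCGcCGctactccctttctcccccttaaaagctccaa
Samsn1: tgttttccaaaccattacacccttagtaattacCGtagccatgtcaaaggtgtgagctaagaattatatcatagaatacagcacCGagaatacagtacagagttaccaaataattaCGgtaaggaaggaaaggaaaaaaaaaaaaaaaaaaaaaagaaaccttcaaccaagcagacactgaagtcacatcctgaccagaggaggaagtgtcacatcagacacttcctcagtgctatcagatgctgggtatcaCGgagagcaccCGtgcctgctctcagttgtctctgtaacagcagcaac
Ephb2: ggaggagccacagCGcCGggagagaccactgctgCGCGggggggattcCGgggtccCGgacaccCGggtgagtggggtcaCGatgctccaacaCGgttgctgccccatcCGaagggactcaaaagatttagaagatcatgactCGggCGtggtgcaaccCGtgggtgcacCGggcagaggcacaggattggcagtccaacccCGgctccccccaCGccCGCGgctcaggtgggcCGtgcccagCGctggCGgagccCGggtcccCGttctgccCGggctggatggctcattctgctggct
Mvb12b: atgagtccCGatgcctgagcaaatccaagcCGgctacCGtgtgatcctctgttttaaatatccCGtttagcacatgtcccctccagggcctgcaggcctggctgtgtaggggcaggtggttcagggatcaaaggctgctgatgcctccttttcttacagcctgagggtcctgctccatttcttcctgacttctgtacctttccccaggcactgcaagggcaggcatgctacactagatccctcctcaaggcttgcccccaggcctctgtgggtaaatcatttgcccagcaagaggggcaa

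CG dinucleotides were counted on the printed strand, which holds the same number on the other strand. The Nes window held 18, and 29.7% of the 32851 mouse windows of this length held as many or more. Ephb2 held 24, Samsn1 held 5 (62.0% of windows held as many or more) and Mvb12b held 4 (68.6%). Methylation was not measured here.

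Beyond these, 9 further genes made up the 12 largest differences lower in sg3. Lpl, lipoprotein lipase, which releases fatty acids from circulating lipoproteins, was at 883, 705 and 798 in sg2 and 22.1, 10.6 and 15.5 in sg3 (49.5-fold). Xlr, an X-linked gene of a multigene family whose copies could share reads, was at 506, 449 and 624 in sg2 and 16.3, 24.1 and 32.8 in sg3. Syce2, which encodes a component of the meiotic synaptonemal complex, was at 106, 88.6 and 107 in sg2 and 8.15, 3.85 and 7.30 in sg3. In all 3 genes every sg2 library was several times above every sg3 library.

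Celsr1, a cadherin of planar cell polarity, was at 1044, 1089 and 997 in sg2 and 75.7, 96.3 and 63.0 in sg3. Psrc1, a microtubule-associated protein of the mitotic spindle, was at 75.2, 45.8 and 61.9 in sg2 and 4.66, 3.85 and 2.74 in sg3. Il2rg, the common gamma chain of receptors for interleukin 2 and related cytokines, was at 1005, 1034 and 1063 in sg2 and 80.3, 91.4 and 95.8 in sg3, 11.6-fold lower in sg3. The sgControl libraries of Il2rg, at 887, 970.4 and 1004, lay just under those of sg2, from which they did not differ past the threshold.

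Fzd7, a WNT receptor, was at 28.2, 21.9 and 25.3 in sg2 and 1.16, 1.93 and 0.912 in sg3, at least 8.27-fold lower. Fbln1, the extracellular matrix protein fibulin 1, was at 26.1, 33.9 and 31.4 in sg2 and 3.49, 0.963 and 2.74 in sg3, at least 10.0-fold lower. Nme4, a mitochondrial nucleoside diphosphate kinase, was at 34.5, 37.8 and 39.2 in sg2 and 2.33, 0.963 and 8.21 in sg3, with the sg3 libraries wide apart from each other. The adjusted limma p-values of these 9 genes ranged from 1.1e-16 for Il2rg to 2.9e-06 for Nme4.

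Among the genes higher in sg3, Hoxb3os, a transcript antisense to Hoxb3, was at 0.00496, 1.21 and 0.0682 in sg2 and 45.4, 42.4 and 39.4 in sg3, at least 14.6-fold higher. Some of its low values were fractions of a read, as arise where reads are shared, and the strand setting of the counting is not given in the sources used here, so reads of Hoxb3os and Hoxb3 may not be separable. Chchd10, a protein of the mitochondrial intermembrane space, was at 4.18, 5.97 and 5.23 in sg2 and 91.9, 137 and 126 in sg3 (23.0-fold). Zfp459, a zinc finger gene, was at 1.04, 0.996 and 0.871 in sg2 and 32.6, 27.6 and 25.3 in sg3, at least 9.78-fold higher. All 3 genes were low in every sg2 library.

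Bcat1, the cytosolic aminotransferase that starts the breakdown of branched-chain amino acids, was at 83.6, 82.6 and 95.9 in sg2 and 1144, 1266 and 1191 in sg3, a log2 difference of 3.77 ± 0.08 (SE) (limma adjusted p = 3.9e-17). Dennd2a, an exchange factor for Rab GTPases, was at 5.22, 2.99 and 6.10 in sg2 and 66.3, 81.8 and 71.2 in sg3. Hist1h1a, a linker histone gene of a family with similar copies, was at 19.9, 11.9 and 23.5 in sg2 and 191, 233 and 169 in sg3. Although Hist1h1a was 10.7-fold higher in sg3, both lines were below every sgControl library, the lowest of which was at 940.3.

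P2rx7, an ATP-gated cation channel, was at 7.31, 5.97 and 6.97 in sg2 and 81.5, 90.5 and 61.1 in sg3, the latter overlapping sgControl. Stc1, a secreted glycoprotein hormone, was at 4.18, 3.98 and 3.49 in sg2 and 40.7, 40.4 and 42.9 in sg3, and again both lines were under every sgControl library. Adjusted limma p-values for the 12 genes highest in sg3 ranged from 3.9e-17 for Bcat1 to 9.8e-08 for Zfp459.

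**Figure D2:**
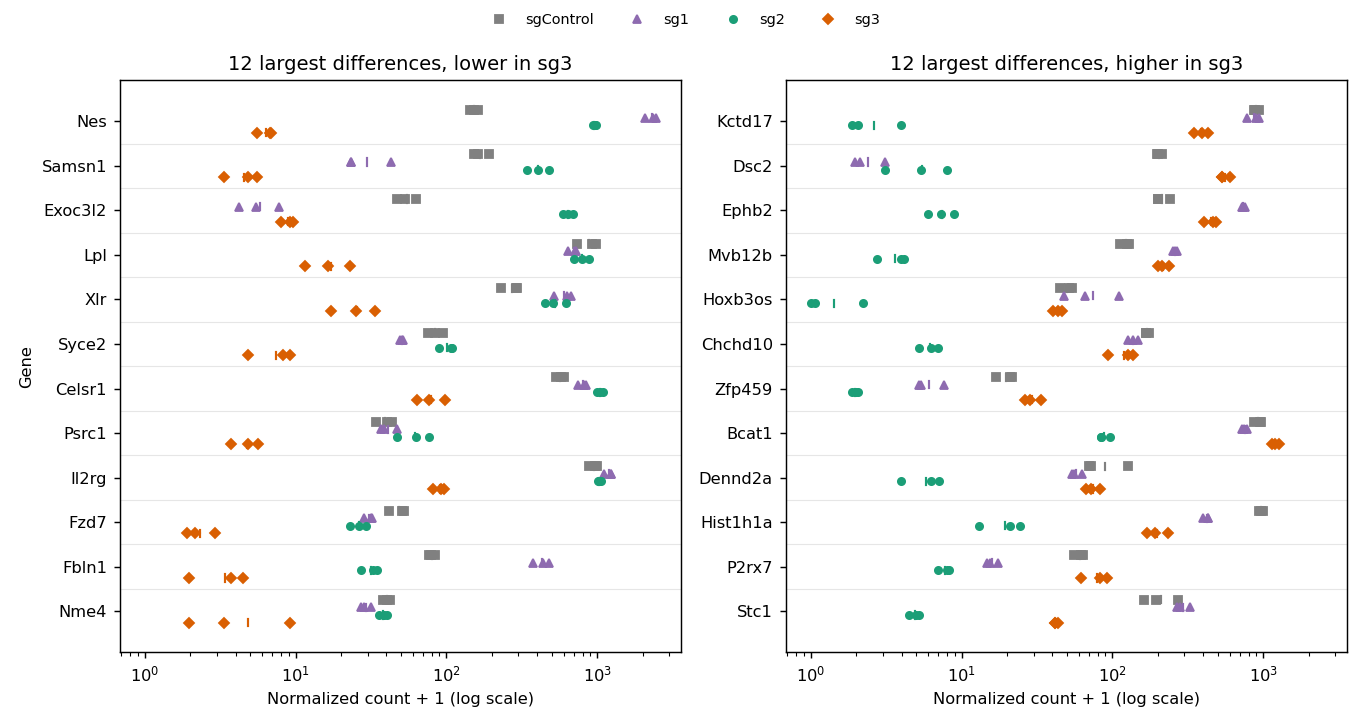
Normalized count + 1 (x axis, log scale) of the 12 largest differences in each direction (y axis), for each of the 3 libraries of sgControl (squares), sg1 (triangles), sg2 (circles) and sg3 (diamonds), with a short bar at the mean. Libraries of a line cluster, and sg2 and sg3 do not overlap in any of the 24 genes, which were chosen for that.

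Each line was also set beside sgControl, which shows on which side a difference lies. These contrasts share the sgControl libraries, so their values are given side by side without a test of their likeness. Against sgControl, 586 genes (59.7%) were called in sg2 and 588 (59.9%) in sg3. Of the 300 genes that separated the lines, 26 were called above sgControl in both lines and 59 below it in both, so that for these genes the lines differed in extent. A further 45 were called higher and 45 lower in sg2 only by this threshold, and 28 higher and 54 lower in sg3 only, while 10 were called in neither. The remaining 33 were called on opposite sides of sgControl, 16 above it in sg2 and 17 above it in sg3.

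Values follow for genes called on opposite sides that had large differences between the lines. Kctd17, with the largest difference of all, was instead below sgControl in both lines. Nes differed from sgControl by 2.65 ± 0.11 (SE) on the log2 scale in sg2 and by -4.58 ± 0.11 (SE) in sg3. The corresponding values for Exoc3l2 were 3.57 ± 0.24 (SE) and -2.60 ± 0.24 (SE), and for Samsn1 1.27 ± 0.25 (SE) and -5.22 ± 0.25 (SE). Dsc2 went the other way, at -5.32 ± 0.29 (SE) in sg2 and 1.45 ± 0.29 (SE) in sg3. Other genes with large differences departed from sgControl mainly in 1 line. Lpl differed by -0.13 ± 0.18 (SE) in sg2 and -5.73 ± 0.18 (SE) in sg3, and Chchd10 by -4.80 ± 0.18 (SE) and -0.53 ± 0.18 (SE).

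**Figure D3:**
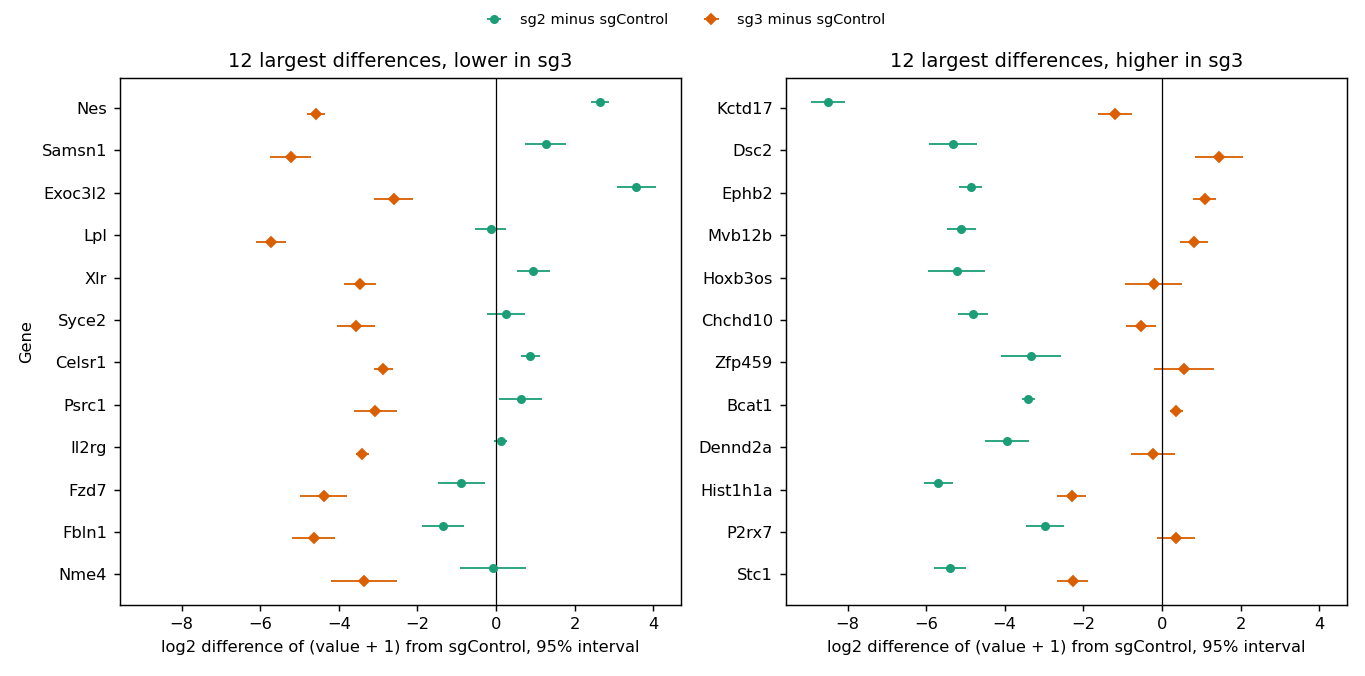
Log2 difference from sgControl with its 95% interval (x axis) in sg2 (circles) and sg3 (diamonds) for the 12 largest differences in each direction (y axis). Nes, Samsn1 and Exoc3l2 lie right of zero in sg2 and left of it in sg3, and Dsc2, Ephb2 and Mvb12b the reverse, whereas Stc1 and Hist1h1a lie left of zero in both.

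Functions were described through lists of genes, each by the number of its members called and its median, beside the 30.5% called and the median log2 difference of -0.02 over all genes. Of the calls named below with a log2 difference under 0.5 in size, each was lost under at least 1 of the 17 alternatives. The lists do not hold every gene of a function, and only some of the called genes outside a list are named beside it. The labels describe mammary cancer cells, and of 22 luminal mammary markers the table held the keratin genes Krt8, Krt18 and Krt19. All 3 were lower in sg3, with a median log2 difference of -0.31. Krt19 was at 419, 421 and 365 in sg2 and 168, 218 and 161 in sg3 (log2 difference -1.15 ± 0.12 (SE), limma adjusted p = 6.1e-07). Krt18 was at 5746, 5630.1 and 5749.9 in sg2 and 4282, 4867 and 4669.8 in sg3 (-0.31 ± 0.05 (SE)), and Krt8 at 5886, 6279 and 5891 in sg2 and 5011, 5613 and 5439 in sg3 (-0.17 ± 0.05 (SE)). The libraries did not overlap for any of the 3, but the call of Krt18 was lost under 2 of the 17 alternatives and that of Krt8 under 6, and with table totals only 1 of the 3 was called.

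Markers of other cells were few in the table. It held 1 of 13 basal markers, Procr, at 2621 to 2820.0 in sg2 and 2540.2 to 2557 in sg3 without passing the threshold, and 1 of 20 leukocyte markers, the lysosomal protein gene Cd68, at 154 to 169 and 139 to 159, also without passing it. Of 7 adipocyte markers it held Pparg, a nuclear receptor of fat cell differentiation, at 33.4 to 47.9 and 52.4 to 63.5, which did not pass the threshold. No fibroblast or endothelial marker was in the table. In bulk RNA of a clonal line, fewer cells in a state and less RNA per cell cannot be told apart.

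Junction, adhesion and matrix genes differed in both directions. Of 4 epithelial junction genes, Dsc2 was higher in sg3 and Cgn, which encodes the tight junction protein cingulin, was lower, at 25.1, 23.9 and 19.2 in sg2 and 4.66, 2.88 and 2.74 in sg3 (log2 difference -2.44 ± 0.25 (SE)). Plekha7, a gene of adherens junctions outside this list, was lower by 2.66. Among 9 matrix and collagen genes 3 were higher and 2 lower, with a median of 0.10. Fn1, fibronectin, was higher in sg3 at 1200.0, 1262 and 1048, against 637, 701 and 730.3 in sg2. Col24a1 and Col12a1, both collagen genes, were also higher, with log2 differences of 2.31 ± 0.39 (SE) and 0.71 ± 0.12 (SE). The lower genes were Fbln1 and, by 0.15, Col18a1, whose call was lost under 9 of the 17 alternatives. Outside this list, Npnt, which encodes the matrix protein nephronectin, was lower by 2.59 and the matricellular gene Ccn3 by 1.71.

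Of 6 mesenchymal and filament genes, only Nes and Fn1 were called, in opposite directions, and Zeb1, Cd44, Itgb1 and Tpm2 were not. Among 7 adhesion receptors, the integrin Itga8 was higher in sg3, at 165, 211 and 182 against 85.5, 77.5 and 104 in sg2. The collagen-binding integrin Itga2 was lower, at 274, 199 and 268 against 458, 464 and 464. Itgav was lower by 0.13, the smallest difference called, and lost its call under 11 of the 17 alternatives. The libraries of the lines did not overlap for any of these integrins. The cadherins Celsr1 and Dsc2, outside this list, had larger differences, at -3.74 and 6.77.

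Of 12 secreted proteases and inhibitors, 2 were higher and 3 lower in sg3, against 2 and 1 with table totals and 3 and 3 with upper quartile scaling. Ctsh, the lysosomal protease cathepsin H, had the largest difference, from 189, 149 and 177 in sg2 to 58.2, 58.7 and 65.7 in sg3 (log2 difference -1.48 ± 0.17 (SE), limma adjusted p = 1.6e-06). Adamtsl3, an ADAMTS-like matrix protein, was higher by 0.89. The plasminogen activators differed little, with tissue-type Plat at 0.35 ± 0.07 (SE) and urokinase Plau at -0.18 ± 0.05 (SE), and these calls were lost under 1 and 2 alternatives. Adamts7, a matrix metalloprotease, was lower by 0.40, a call lost under 2.

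Receptors and signalling genes were next. Of 11 cytokines, chemokines and their receptors, 3 were called, all lower in sg3, and the list's median was -0.10. Beside Il2rg these were the decoy receptors Tnfrsf26, at 1167, 1171 and 1300.2 in sg2 and 719, 836 and 852 in sg3, and Tnfrsf23, by 0.30. Scaled to table totals, 2 of the 3 were called. Of 7 growth factors and receptor tyrosine kinases, 3 were higher and 1 lower. Beside Ephb2, the EGF-family ligand Btc was higher in sg3, at 71.0, 61.6 and 70.3 against 35.5, 32.9 and 44.4, and the collagen receptor Ddr2 was higher by 0.19 while the TAM receptor Mertk was lower by 0.31. The last calls were lost under 3 and 4 alternatives.

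Of 6 WNT and Notch genes, 3 were lower and none higher in sg3, and this count was the same under the 3 other scalings. These were Fzd7, Notch4 and the WNT receptor Fzd8. Notch4, a Notch receptor, was at 137, 168 and 135 in sg2 and 85.0, 59.7 and 60.2 in sg3 (log2 difference -1.10 ± 0.15 (SE), limma adjusted p = 1.5e-05). Fzd8 was low in both lines, at 7.31, 2.99 and 5.23 in sg2 and 1.16, 1.93 and 2.74 in sg3, and its call was lost under 5 alternatives. The list's median was -0.66, or -0.52 with the genes near zero set at their bound, and Fzd6, Notch1 and Lrp6 did not pass the threshold. Genes of these pathways outside the list were called in both directions. Neurl1b, a ubiquitin ligase of Notch signalling, was higher by 0.65, Dtx4, a Deltex gene, by 0.57 (a call lost under 1 alternative) and Ankrd6, the Diversin gene, by 1.94. Notum, a secreted inhibitor of WNT proteins, was at 77.0, 79.8 and 55.3 in sg2 and 23.8, 20.1 and 29.2 in sg3, and the corepressor gene Tle4 was lower by 1.10. These 5 were picked with their values in view.

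The TGF-beta and BMP list held 4 genes. Bmp7, a secreted BMP ligand, was higher in sg3, at 354, 409 and 348 against 228, 236 and 229 (log2 difference 0.67 ± 0.09 (SE)). The signal transducer Smad2 and the co-receptor Tgfbr3 were lower by 0.21 and 0.19, and neither was called with table totals. Among 6 genes of G protein signalling, the adhesion receptor Adgrg3 was lower by 0.54 and the adenosine receptor Adora1 was higher by 0.40. With the other scalings 2 of these 6 were called higher and 1 lower, in place of 1 and 2.

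Interferon-stimulated genes were called in both directions. Of 12 in the table, 4 were lower and 1 higher in sg3, as they were under the other scalings, and the median log2 difference was -0.06. Rsad2, the antiviral protein viperin, was at 17.8, 11.9 and 14.8 in sg2 and 2.33, 2.89 and 1.82 in sg3, and Trim30a, a member of the tripartite motif family, was at 8.15, 4.81 and 5.47 in sg3, below each sg2 library. Oasl1, of the oligoadenylate synthetase family, was lower by 1.04. In contrast Ifit2, which binds viral RNA, was higher in sg3, at 71.0, 68.3 and 91.2 against 18.8, 21.9 and 34.0 (limma adjusted p = 9.6e-05). The genes Ddx58, Irf5, Herc6, Gbp9, Ifi204, Ifi205 and Ifi203-ps did not pass the threshold.

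Transcription factor genes were called in both directions. The list of homeobox and developmental factors held 13 entries, of which 3 were higher and 4 lower in sg3, and Hoxb3os, a noncoding transcript, was 1 of those higher. Hoxb3 and its antisense transcript were both higher, Hoxb3 at 83.8, 104 and 116 against 29.2, 50.6 and 36.5 in sg2. Sox13, a SOX factor, was lower, at 213, 268 and 209 against 579.8, 557 and 526 (log2 difference -1.27 ± 0.10 (SE), limma adjusted p = 5.6e-09). Hoxa7 was lower as well, at 6.44 to 12.4 against 16.7 to 23.6 in sg2. Of 11 zinc finger genes 2 were higher and 4 lower. Zfp979 was lower by 1.67 and Zfp422 by 0.69, and Zfp239 was higher by 0.71.

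Among 4 chromatin silencing genes, Setbp1, a SET-binding protein gene, was higher in sg3, at 72.2, 82.8 and 85.8 against 19.9, 23.9 and 31.4, with both lines below every sgControl library. The heterochromatin protein gene Cbx5 and the regulators Arid2 and Mbd3 did not pass the threshold. Of 6 histone genes, Hist1h1a was higher and Hist1h2bp, a core histone gene, was lower by 0.38, a call lost under 2 alternatives. The germline list held Xlr and Piwil4, a gene of the piRNA pathway, which was higher by 0.61 and lost its call under 5 alternatives. Syce2, the meiotic gene described above, is outside this list and was lower by 3.82.

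Of 26 solute carriers, pumps and ABC transporters, 6 were higher and 4 lower, with a median of 0.02. With table totals 7 were higher and 1 lower, with a median of 0.12. Slc36a4, an amino acid transporter, was higher by 1.33. The water channel Aqp1 was at 324, 372 and 400.0 in sg2 and 698, 876 and 751 in sg3, without overlap. Of 13 neuronal genes, 2 were higher and 4 lower, which turned to 3 and 2 with table totals. These were Nes, the axon guidance genes Slit2, Sema6a, Sema6d and Plxnd1, and Kcnab2, a potassium channel subunit gene. Slit2 was higher in sg3, at 7.31, 0.996 and 6.10 in sg2 and 16.3, 9.63 and 12.8 in sg3, and Sema6a was lower, at 24.0, 36.8 and 32.2 in sg2 and 18.6, 15.4 and 9.12 in sg3, whose call was lost under 3 alternatives.

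Genes of growth and metabolism were described in the same way. None of 14 nucleolar factors of ribosome biogenesis was called, and their log2 differences lay between -0.13 and 0.08, with 95% intervals that reached from -0.28 to 0.22. Nolc1, the member with the highest count, was at 4731, 4558 and 4615 in sg2 and 4510.1, 5039.9 and 4895 in sg3. No member of the glycolysis and hypoxia list was called either (0 of 6), although its intervals reached 0.74. By limma's unadjusted p-value, 0 of the 14 nucleolar genes and 0 of the 6 glycolysis and hypoxia genes were under 0.05, against 369 of all 982 (37.6%). Among the 246 genes with the highest counts, the share called at the adjusted threshold was 15.4%, and the counts of list members were not matched to it. The table appears limited to genes that differed when the knockout lines together were compared with sgControl. Such a filter can favour genes on which the lines moved alike, so no conclusion about growth genes is drawn from these counts.

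One of 11 ribosomal protein genes was called, Rpl39, which was lower by 0.22. Of 11 mitochondrial respiration genes 1 was called, Atp5g3, an ATP synthase subunit, higher by 0.16, and 2 or 3 were called higher with the other scalings. The count was also 1 for 10 genes of the p53 and DNA damage response, with Gadd45b lower by 0.44. The latter call was lost under 13 of the 17 alternatives. Outside this list, the mismatch repair gene Mlh3 was higher by 0.81. Of 6 lipid metabolism genes only Lpl was called, and Fasn, Acly, Mvd and Soat1, enzymes of fatty acid and sterol metabolism, were not. In the MYC target list of 7 genes, Impdh1, an enzyme of guanine nucleotide synthesis, was lower by 0.32 and Shmt1, of folate metabolism, was higher by 0.20.

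Of 14 genes of the unfolded protein and amino acid stress response, 2 were lower and 1 higher, none by more than 0.28 on the log2 scale, and with table totals 1 was higher and 0 lower. Of 11 antioxidant and xenobiotic enzymes 2 were lower (with table totals 1 higher and 1 lower), the cytochrome P450 gene Cyp4f17, at 19.9, 24.9 and 23.5 in sg2 and 2.33, 7.70 and 2.74 in sg3, and the aldehyde dehydrogenase Aldh2, by 0.20. Cell cycle genes were called in 2 of 6 cases, with the centromere protein Cenpv lower in sg3 at 132, 152 and 161 against 349, 324 and 313, and Prc1, of the central spindle, higher by 0.16. Psrc1, the spindle gene described above, is outside this list. Of 7 translation genes, the initiation factor gene Eif5a2 was higher at 17.5, 3.85 and 8.21 in sg3 against 5.22, 2.99 and 0.871 in sg2, with overlapping libraries and a call lost under 8 alternatives. Of 2 apolipoprotein L genes, Apol7a was higher by 0.64, a call lost under 2 alternatives, and the imprinted antisense transcript Airn did not pass the threshold.

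**Figure D4:**
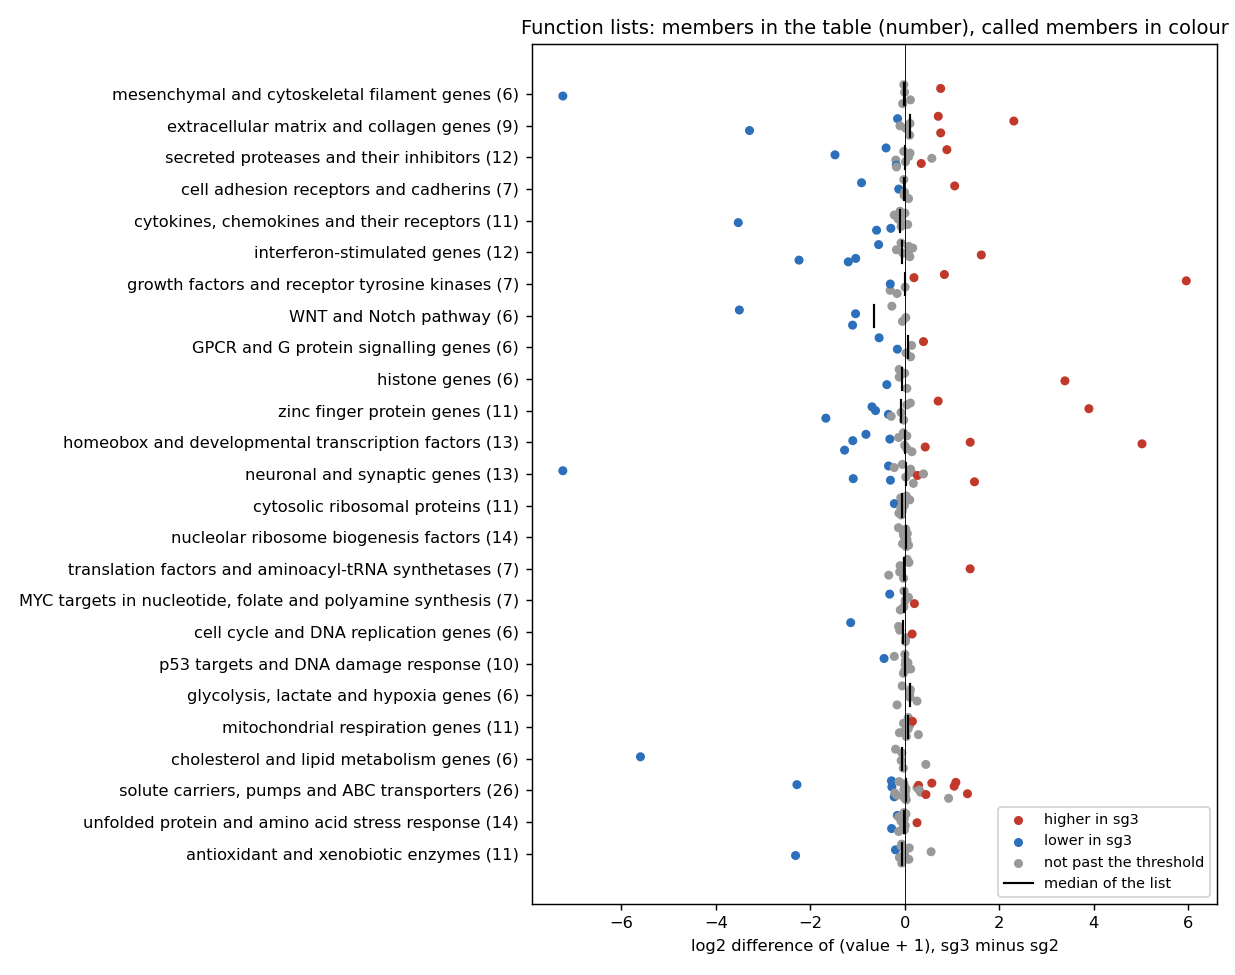
Log2 difference, sg3 minus sg2 (x axis), of the members of each function list with at least 5 genes in the table (y axis, number in parentheses). Red members were called higher in sg3, blue lower and grey not at all, and the black bar is the list's median. Medians lie close to zero except for the WNT and Notch list, and the nucleolar list holds no called member.

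Called genes were found on every chromosome that the table covers. The share called ran from 19.1% on chromosome 15, where 18 of 94 genes were called, to 47.6% on chromosome 18, with 10 of 21. Chromosome 18 had the fewest genes in the table. Called genes on chromosome 18 included Dsc2 and Setbp1, the myelin basic protein gene Mbp, higher at 162, 195 and 165 in sg3 against 46.0, 39.8 and 52.3 in sg2, and Celf4, an RNA-binding protein gene, lower at 30.3, 37.5 and 40.1 against 104, 92.6 and 82.8. On chromosome 15 both directions were met, with Kctd17 higher and Celsr1, Fbln1 and the matricellular gene Ccn3 lower.

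Chromosome 16 had the most uneven direction, with 8 genes lower in sg3, 1 higher and 28.6% of its 28 genes at a positive difference. The higher gene was Boc, a co-receptor of hedgehog signalling, at 230.5, 252 and 211 in sg3 against 35.5, 25.9 and 34.0 in sg2. Among the lower genes, Pros1, the anticoagulant protein S, was at 94.3, 113 and 142 against 378, 343 and 341, and P3h2, a collagen prolyl hydroxylase, was lower by 0.94. Chromosome 7 was close to chromosome 16, with 30.6% of its 49 genes at a positive difference, against 435 of all 982 genes. The median of chromosome 16, -0.09, was smaller in size than the 0.10 shift with table totals, so its balance of signs can depend on scaling. On chromosome 12, where 42.3% of 26 genes were called, Ttc9 was lower by 2.11 and the mismatch repair gene Mlh3 was higher by 0.81.

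Neighbouring genes were called in the same direction about as often as in opposite directions. Of 467 pairs of neighbours in the table within 1 Mb, 52.5% had differences of the same sign, and of the 42 pairs with both genes called, 23 (54.8%) were called in the same direction. Tmem176a and Tmem176b, adjacent genes of a membrane protein family, were both higher in sg3. Tmem176a was at 4.18, 4.98 and 6.97 in sg2 and 24.4, 17.3 and 18.2 in sg3, and Tmem176b was higher by 1.58. Yet Gimap9 and Gpnmb, their neighbours in the table, were both lower, by 1.83 and 2.47. The neighbours Hoxb3, Hoxb3os and Osbpl7 on chromosome 11 were all higher, and Ripk3, the kinase of necroptosis, was lower together with Sdr39u1 and Mcpt8 on chromosome 14. Ripk3 was at 503, 495 and 479 in sg2 and 81.5, 83.7 and 72.1 in sg3. These pairs and runs were chosen after their values were seen.

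**Figure D5:**
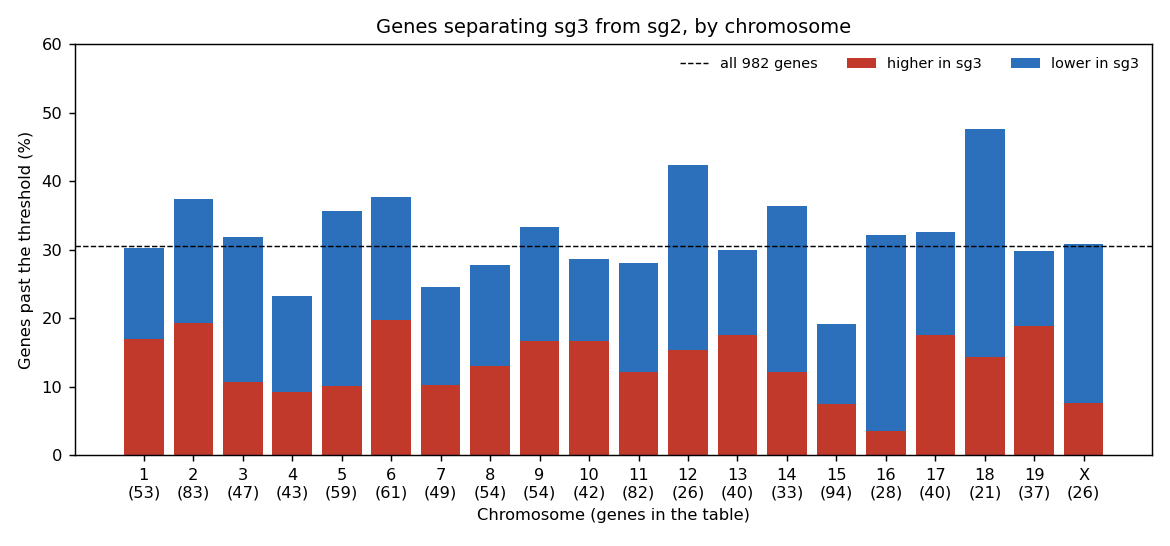
Percentage of each chromosome's genes in the table (y axis) called higher (red) or lower (blue) in sg3, by chromosome with its number of genes (x axis); the dashed line is the 30.5% of all genes. Shares run from 19.1% on chromosome 15 to 47.6% on chromosome 18, and blue exceeds red most on chromosome 16.

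Protein-coding genes made up 902 of the 982, of which 282 (31.3%) were called, compared with 18 of 80 others (22.5%). Of 77 transcripts with Gm, Rik or clone-based names, 13 were higher and 12 lower in sg3, with a median of -0.05. Gm2694 was at 85.7, 78.7 and 61.9 in sg2 and 9.31, 9.63 and 8.21 in sg3, and the sgControl libraries lay between the lines. The transcript 3110039I08Rik was lower by 2.35 and 3830417A13Rik was higher by 2.12, the latter at 3.13, 7.97 and 8.71 in sg2 and 30.3, 24.1 and 36.5 in sg3.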

How the data were processed

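RNA-seq libraries of 6DT1 cells were compared between the sg3 and sg2 lines, with 3 libraries each. The values are a normalized signal deposited by the authors, which by their values are estimated reads per gene scaled by 1 factor for each library. Per the submitters' processing notes, the authors used STAR 2.7.8a, Partek and DESeq2. The study's methods describe STAR alignment in Partek Flow to a human genome, median-ratio normalization and a test of differential expression by the authors. The genome build, annotation and counting used for these mouse libraries are not given in the sources used here. Under 100 estimated reads, 79.9% to 85.5% of a library's values were whole numbers of reads within 0.05, so that whole reads were not recovered for nearly all genes and no count model was run. Symbols were matched for 972 of the 982 genes, and the annotation served only for names, chromosomes and gene order. Promoter windows were found in the RefSeq table for 702 genes (71.5%), which is too few to compare sets of promoters.

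The table sums give 1917222 to 2780834 estimated reads per library in these genes, and total depth is unknown. A line was taken as near zero where each of its libraries held no more than 3 estimated reads, and such folds are bounds that cover counting error only. Libraries of a line were not duplicates, since their estimated reads differed with a chi-square of at least 13.4 per degree of freedom.

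The comparison was fitted in limma 3.58.1 (R 4.3.3) on log2(value + 1) with all 12 libraries and 4 groups, which share 1 estimate of the spread, with an intensity trend and robust empirical Bayes. Two-sided p-values were corrected over all 982 genes (Benjamini-Hochberg), and adjusted p-values up to 0.05 were called. The fit was also run on simulated data with known changes, whose outcome is not given here. Alternatives were only the 6 libraries, pseudocounts of 0.5 and 5, filters at a mean of 10 and 50, 3 other scalings, no trend, a test against a 1.2-fold change, a replicate block and leaving out each library. The named genes were the 12 largest differences in each direction, up to 4 called genes for a list or chromosome, and the 6 largest on opposite sides of sgControl. Any other gene was named with its values in view. The members and lists were chosen with earlier results of these data known, and some name patterns of the lists that had caught unrelated genes were corrected after values were seen.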

Additional observations from a re-analysis of the deposited data

Results flagged for a closer look

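Of the genes that separated sg3 from sg2, 33 differed from sgControl past the threshold in opposite directions in the lines. By the log2 difference between sg3 and sg2, the 6 largest were Nes (-7.24), Dsc2 (6.77), Samsn1 (-6.49), Exoc3l2 (-6.17), Ephb2 (5.96) and Mvb12b (5.92). Each had all libraries of 1 line above and all libraries of the other below those of sgControl, and the difference between the lines was itself tested by limma.

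The set included genes of several kinds. Lower in sg3 were Celsr1, the planar polarity cadherin, Plekha7, a protein of adherens junctions, Npnt, the matrix protein nephronectin, and Ripk3. Higher in sg3 were Bcat1, Boc, the chromatin remodelling subunit gene Smarcd3 and Blnk, a B cell adaptor gene. Guide and clone cannot be told apart for any of them.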

How the results depend on the processing

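With 3 dishes of 1 clone on each side, only differences above the spread of dishes can be seen. The table holds a part of the transcriptome that appears to have been chosen on a related contrast. Over 17 alternatives, 169 to 342 genes were called against 300. No called gene changed sign. Tested against a 1.2-fold change, 169 genes were called, 17 instead of 33 lay on opposite sides of sgControl, and 59 instead of 113 genes of the function lists were called, as this test asks for a larger difference by construction. Leaving out 1 library gave 259 to 301 called genes, 28 to 34 on opposite sides, 92 to 110 genes of the lists and a spread of 22.4 to 28.5 percentage points between chromosomes. With only the 6 libraries of the lines, 283 genes were called, and the opposite sides of sgControl cannot be given. Of the 98 called named genes, 30 lost the call under at least 1 alternative. Reversed values were those of Egln3 (0.046 with table totals), Airn (-0.19 without sg3 replicate 1, against 0.33 without sg3 replicate 2) and Procr (0.0083 with table totals), which were not called.

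Same-numbered libraries of sg2 and sg3 had correlations of -0.064, 0.053 and 0.16 in their deviations from the line means. These are too few to tell whether same-numbered libraries share a batch. With the replicate number as a block, 342 genes were called, with 36 on opposite sides, 123 genes of the lists and a chromosome spread of 22.1 percentage points.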
